A study of Homo sapiens with 3 samples.

Results

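The transcripts described are those of 44 genes of the cytosolic and mitochondrial heat shock chaperone system, chosen by name as members of the HSP70, HSP90, HSP60, small HSP, DNAJ, BAG, HSF and CCT families, with the close partners of HSP90 and HSP60. All 44 had an identifier in the count table, which lists 60664. Of these, 42 were measured, meaning that they reached 1 CPM (1 count for every 1000000 of the scaled library) in at least 1 library, as did 14792 genes in all. HSPA6 and DNAJA4 did not. The libraries came from Caco-2 cells, a line grown from a human colon carcinoma that forms an intestinal type of epithelium in culture, labelled wild type in every group. One library came from cells given 30 µM polydatin, a glucoside of resveratrol, for 2 h and then polydatin together with 3% dextran sulfate sodium (DSS) for 8 h. The second came from cells given 3% DSS for 8 h, and the third from control cells kept in the incubator without either agent. DSS is a sulfated polysaccharide used to provoke colitis in rodents, and the title of the series places the study in work on ferroptosis through NRF2, SLC7A11 and GPX4.

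Heat shock proteins keep other proteins folded. When unfolded protein builds up in the cytosol, the transcription factor HSF1 is released from chaperones and binds repeats of a short unit in the promoters of its targets, among them the inducible HSP70 genes. HSP70, guided by its J-domain partners and reset by nucleotide exchange factors, passes clients to HSP90 or to the ring-shaped chaperonin CCT in the cytosol and HSP60 in mitochondria, and small HSPs hold unfolded protein until these can act. In the intestinal epithelium, inducible HSP70 is known as a cytoprotective protein.

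Each group had 1 library, with 16667622 counts for DSS with polydatin, 18825914 for DSS and 18695613 for control. No difference given here therefore has a replicate check, and each ratio compares libraries. Ranges in parentheses are 95% exact (Clopper-Pearson) counting intervals of a ratio of scaled counts. They cover counting error alone and no variation between cultures. Reads counted without molecular identifiers do not stand for separate molecules, so the intervals may be too narrow even for counting error. A gene was called higher or lower at 1.5-fold or more with an interval excluding 1. All 6 epithelial markers were present, with summed levels of 6409 CPM in DSS with polydatin, 8001 CPM in DSS and 6733 CPM in control. They did not run alike. CDX2 had 78.3 CPM in DSS with polydatin, 118 in DSS and 147 in control. It was called lower in DSS with polydatin against DSS (0.665) and against control (0.533). CDH1 ran the other way, at 738 CPM in DSS with polydatin, 698 in DSS and 586 in control. No epithelial marker but CDX2 was called in any comparison. The 8 markers of other cell types summed to 58.8 CPM in DSS with polydatin, 57.1 CPM in DSS and 67.3 CPM in control. The collagen gene COL1A1 gave most of this, at 43.3 CPM in DSS with polydatin, 37.8 in DSS and 39.7 in control. The endothelial gene PECAM1 had 9.52 CPM in DSS with polydatin, 16.0 in DSS and 24.4 in control, and the other endothelial gene, VWF, ran the opposite way at 3.90 CPM in DSS with polydatin, 1.19 in DSS and 0.496 in control. The part of these markers in the results was not tested. The leukocyte marker PTPRC was at 0 in all 3.

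Members differed in direction. The transcripts of a few stress-inducible or degradation-linked chaperones were higher in the DSS library than in the control library. Those of the folding machines HSP90, HSP60 with HSP10 and CCT stood highest in the control library and lowest in the DSS with polydatin library. In DSS with polydatin against DSS, 2 of 42 members (4.76%) were called higher and 5 (11.9%) lower, where 5.39% of all measured genes were called higher and 2.60% lower. In DSS against control, 4 members (9.52%) were called higher and 0 lower, where 9.45% of all measured genes were called higher and 5.81% lower, so the share called higher was that of the background. In DSS with polydatin against control, 4 members (9.52%) were called higher and 18 (42.9%) lower, where 16.0% of all measured genes were called higher and 12.4% lower. Because libraries are shared between these comparisons, their values are set side by side only.

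Counted by the interval alone, at any fold, 4 members lay above 1 and 27 below in DSS with polydatin against DSS, where 20.2% of all measured genes lay above and 25.8% below. Against control, DSS had 12 members above and 22 below, beside 26.1% of all genes above and 27.2% below, and DSS with polydatin had 10 above and 28 below, beside 30.7% of all genes above and 34.4% below. This rule depends on depth, and most members are abundant. Among the 10084 genes that reached 10 CPM, 41 of them members, the share called lower in DSS with polydatin was 2.32% against DSS and 13.0% against control, with the same 5 and 18 members. The median log2 ratio of the members was -0.32 in DSS with polydatin against DSS, -0.16 in DSS against control and -0.48 in DSS with polydatin against control. That of all measured genes was -0.01 in DSS with polydatin against DSS, -0.01 in DSS against control and -0.02 in DSS with polydatin against control. For DSS against control the mean of the members was 0.0044, of the opposite sign to the median. Scaling by total counts in place of TMM factors moved the median of all genes to 0.08 in DSS with polydatin against DSS and to 0.09 in DSS with polydatin against control. It left 1 member lower against DSS and 13 lower against control, and split all calls into 1132 higher and 234 lower in place of 797 higher and 384 lower in DSS with polydatin against DSS, and into 2957 higher and 1238 lower in place of 2367 higher and 1829 lower in DSS with polydatin against control. In bulk RNA, a lower level in every cell and a lower level in fewer of the cells cannot be told apart.

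**Figure D1:**
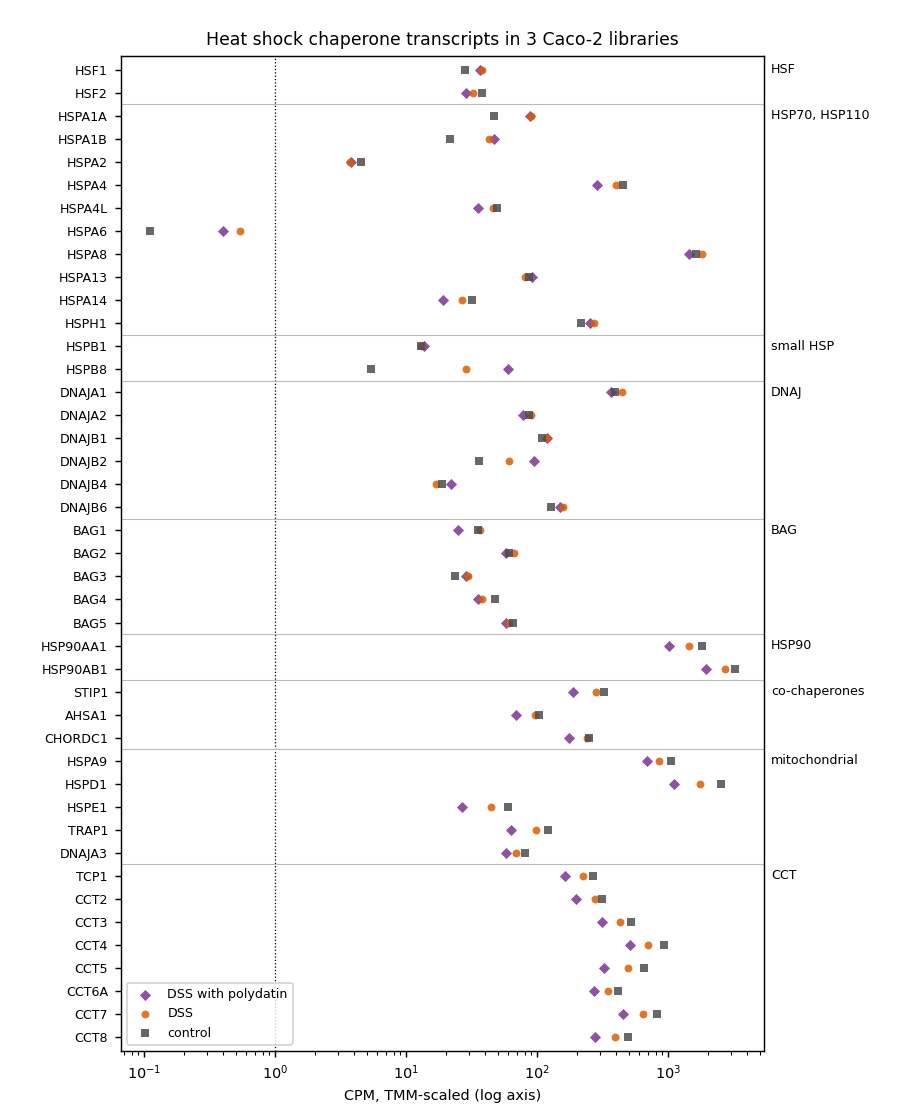
Level of 43 members in each library, as TMM-scaled CPM on a log axis, grouped by role. Diamonds are DSS with polydatin, circles DSS and squares control, 1 library each. DNAJA4, at 0 in all 3, is not drawn, and the dotted line marks the 1 CPM that a measured gene had to reach. HSPB8 spans the widest range, and all 13 mitochondrial and CCT genes have the diamond furthest to the left.

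HSF1, the main activator of the heat shock response, had 641 counts in DSS with polydatin, 701 in DSS and 512 in control. It was at 1.34 times the control level in DSS (1.20 to 1.51) and the ratio to DSS in DSS with polydatin was 0.972 (0.872 to 1.08), neither of which was a call. HSF1 shares 2.62% of its annotated exon bases with DGAT1 on the other strand, which had 649 counts in DSS with polydatin, 669 in DSS and 349 in control. With a smooth trend of the log2 ratio on GC content and length removed, HSF1 in DSS with polydatin stood at 0.889 times control in place of 1.30. Its log2 ratio in DSS with polydatin against DSS then became -0.26 in place of -0.04, beyond the counting interval. HSF2, a related factor that can form trimers with HSF1, had 500 counts in DSS with polydatin, 598 in DSS and 692 in control. Its ratio was 0.888 (0.787 to 1.00) in DSS with polydatin against DSS and 0.847 (0.758 to 0.946) in DSS against control. Neither factor was called in any comparison.

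The near-identical inducible HSP70 genes HSPA1A (ENSG00000204389, chromosome 6, 31815464 to 31817946, GRCh38 as are all coordinates) and HSPA1B (ENSG00000204388, chromosome 6, 31827735 to 31830255), which encode the stress-induced cytosolic HSP70, were called higher in DSS. HSPA1A had 1536 counts in DSS with polydatin, 1668 in DSS and 848 in control, and HSPA1B had 816 in DSS with polydatin, 788 in DSS and 389 in control. Both libraries given DSS stood above control, and they stood close to each other. HSPA1A was 1.93-fold higher (1.77 to 2.10) and HSPA1B 1.99-fold higher (1.76 to 2.25) in DSS than in control. Between DSS with polydatin and DSS the ratio was 0.978 (0.912 to 1.05) for HSPA1A and 1.10 (0.996 to 1.21) for HSPA1B. Since the counting could assign reads of one copy to the other, their sum is the safer measure. Reads that fit both copies may instead have been left uncounted, and these would be missing from the sum. HSPA1B also shares 36.5% of its exon bases with AL671762.1 on the same strand, which had 0 counts in all 3 libraries. Any reads left uncounted in that overlap would be missing from the sum as well. The summed counts were 2352 in DSS with polydatin, 2456 in DSS and 1237 in control, a ratio of 1.02 (0.961 to 1.08) for DSS with polydatin against DSS and of 1.95 (1.82 to 2.09) for DSS against control. Per length, HSPA1A alone reached 0.120 of the level of the constitutive HSPA8 in DSS with polydatin, 0.0976 in DSS and 0.0565 in control. These values leave out HSPA1B and would be too low if shared reads were left uncounted.

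The promoters of this pair are shown because these are the HSP70 genes called higher in DSS, and because their sequences are nearly the same. The windows run from 250 bases before to 50 after the RefSeq start (GRCh38.p14, plus strand), 5′ to 3′, at chr6:31815293-31815592 for HSPA1A and chr6:31827488-31827787 for HSPA1B. Capitals mark GAANNTTC, a pair of inverted heat shock units, with N as any base. It begins 106 bases before the start in HSPA1A and 105 in HSPA1B. Only exact letters were matched, here and in the other windows, so units that depart from GAA or TTC are not marked.
HSPA1A: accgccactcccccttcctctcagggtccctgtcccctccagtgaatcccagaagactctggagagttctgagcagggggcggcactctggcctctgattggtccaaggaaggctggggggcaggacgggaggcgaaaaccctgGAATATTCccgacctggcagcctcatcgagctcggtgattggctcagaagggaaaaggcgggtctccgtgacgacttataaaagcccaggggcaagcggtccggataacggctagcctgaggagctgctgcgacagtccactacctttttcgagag
HSPA1B: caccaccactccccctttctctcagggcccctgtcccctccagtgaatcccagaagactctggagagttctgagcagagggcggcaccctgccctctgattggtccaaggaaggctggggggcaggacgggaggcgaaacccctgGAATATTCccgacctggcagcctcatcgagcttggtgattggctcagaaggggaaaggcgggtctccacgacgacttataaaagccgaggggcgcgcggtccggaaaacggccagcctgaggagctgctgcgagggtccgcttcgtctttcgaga
When aligned, the windows share 277 of 299 bases (92.6%), and the marked letters are the same.

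None of the other measured HSP70 and HSP110 genes was called in DSS against control. HSPA8 (chromosome 11, 123057489 to 123063230), the constitutive cytosolic HSP70 and the most abundant of the family, had 25067 counts in DSS with polydatin, 33367 in DSS and 29291 in control. Its ratio was 0.798 (0.785 to 0.811) in DSS with polydatin against DSS and 1.12 (1.10 to 1.13) in DSS against control, within the 1.5-fold limit both times. HSPH1, an HSP110 that acts as nucleotide exchange factor for HSP70, had 4376 counts in DSS with polydatin, 4976 in DSS and 3906 in control, 1.25 times control in DSS (1.20 to 1.30). HSPA4, another HSP110, had 4960 counts in DSS with polydatin, 7369 in DSS and 8241 in control. With polydatin the HSPA4 ratio to DSS was 0.715 (0.690 to 0.741), short of a call. HSPA4 was called lower in DSS with polydatin against control at 0.627 (0.605 to 0.649). That call was lost with total-count scaling (0.675) and once the trend on GC content and length was removed (0.668).

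HSPA14, a ribosome-associated HSP70, had 333 counts in DSS with polydatin, 492 in DSS and 579 in control, and was called lower in DSS with polydatin against control at 0.599 (0.522 to 0.687), a call that was lost with the trend removed (0.668). GENCODE release 29 gives the symbol HSPA14 to a second identifier as well, now named MSANTD7, whose counts (529 in DSS with polydatin, 533 in DSS and 477 in control) do not enter this value. HSPA4L, also of the HSP110 type, HSPA13, a microsomal HSP70, and HSPA2, best known from testis, were not called in any comparison. The strictly stress-induced HSPA6 had 7 counts in DSS with polydatin, 10 in DSS and 2 in control, below 1 CPM in each. At these counts its ratio in DSS against control was 4.90 with an interval from 1.04 to 46.0.

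HSPB8 (ENSG00000152137, chromosome 12, 119178642 to 119221131), a small HSP that works with BAG3 to send misfolded protein to autophagy, had the largest ratio of the 42 members in all 3 comparisons. It had 1041 counts in DSS with polydatin, 532 in DSS and 98 in control, which is 59.7 CPM in DSS with polydatin, 28.7 in DSS and 5.40 in control. Both libraries given DSS stood above control, and the one with polydatin stood furthest above. The ratio was 2.08 (1.87 to 2.31) in DSS with polydatin against DSS, 5.32 (4.28 to 6.67) in DSS against control and 11.1 (8.99 to 13.8) in DSS with polydatin against control. HSPB1, the small HSP usually known as HSP27, had 238 counts in DSS with polydatin, 240 in DSS and 236 in control. Its ratio was 1.05 (0.877 to 1.27) in DSS with polydatin against DSS and 0.997 (0.829 to 1.20) in DSS against control.

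The HSPB8 promoter window is shown because this gene had the largest ratios, and lies at chr12:119178681-119178980 (GRCh38.p14, plus strand). Capitals mark 2 matches to GAANNTTC, which begin 88 bases before the start and 4 after it. The upstream match has the same 8 letters as that of HSPA1A and HSPA1B.
HSPB8: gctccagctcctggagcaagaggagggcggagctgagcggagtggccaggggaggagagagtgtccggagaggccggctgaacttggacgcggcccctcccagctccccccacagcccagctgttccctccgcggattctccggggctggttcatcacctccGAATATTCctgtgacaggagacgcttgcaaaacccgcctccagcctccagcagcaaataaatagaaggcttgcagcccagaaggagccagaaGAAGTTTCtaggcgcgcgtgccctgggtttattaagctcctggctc
A match of letters is a description of the window and not evidence that a factor binds there.

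The J-domain proteins, which bring clients to HSP70 and stimulate its ATPase, had 1 called member of 6 measured, DNAJB2. DNAJB2 (ENSG00000135924, chromosome 2, 219279267 to 219286900), which binds ubiquitin chains and is linked to delivery of clients to the proteasome, had 1635 counts in DSS with polydatin, 1123 in DSS and 646 in control. It was 1.55-fold higher in DSS with polydatin than in DSS (1.43 to 1.67) and 1.70-fold higher in DSS than in control (1.55 to 1.88). Both calls were lost when the GC content and length trend was removed (1.41 against DSS, and 1.47 for DSS against control), with the direction kept. The call in DSS with polydatin against control, at 2.64 (2.40 to 2.89), was kept. DNAJA1, the most abundant of these genes and a main partner of HSPA8, had 6404 counts in DSS with polydatin, 8207 in DSS and 7118 in control, and was not called. DNAJB1, the classic heat-inducible HSP40, had 2065 counts in DSS with polydatin, 2184 in DSS and 1968 in control, with ratios of 1.00 (0.945 to 1.07) in DSS with polydatin against DSS and 1.09 (1.02 to 1.16) in DSS against control. DNAJA2, DNAJB4 and DNAJB6 had ratios between 0.871 and 1.32 in DSS with polydatin against DSS and between 0.904 and 1.22 in DSS against control. DNAJA4 had 0 counts in all 3 libraries, where 3 counts would have been 0.172 CPM in DSS with polydatin, 0.162 in DSS and 0.165 in control.

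None of the 5 BAG genes, whose proteins release nucleotide from HSP70, was called in any comparison. BAG3, itself a known heat shock target and the partner of HSPB8, had 496 counts in DSS with polydatin, 548 in DSS and 428 in control, 1.25 times control in DSS (1.10 to 1.43). HSPB8 stood at 2.02 times the level of BAG3 per length in DSS with polydatin, 0.932 times in DSS and 0.220 times in control, so the proportion of the partners' transcripts differed widely between libraries. BAG1 had 436 counts in DSS with polydatin, 677 in DSS and 642 in control, and its ratio in DSS with polydatin against DSS, 0.684 (0.605 to 0.773), was the closest of the group to a call. BAG4 had 613 counts in DSS with polydatin, 696 in DSS and 866 in control and was at 0.788 times control in DSS (0.712 to 0.871). BAG5, the most abundant by mean CPM, had 1011 counts in DSS with polydatin, 1133 in DSS and 1185 in control. BAG2 shares 42.7% of its exon bases with RAB23 on the other strand, so its counts (1003 in DSS with polydatin, 1230 in DSS and 1098 in control) may hold reads of that gene.

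**Figure D2:**
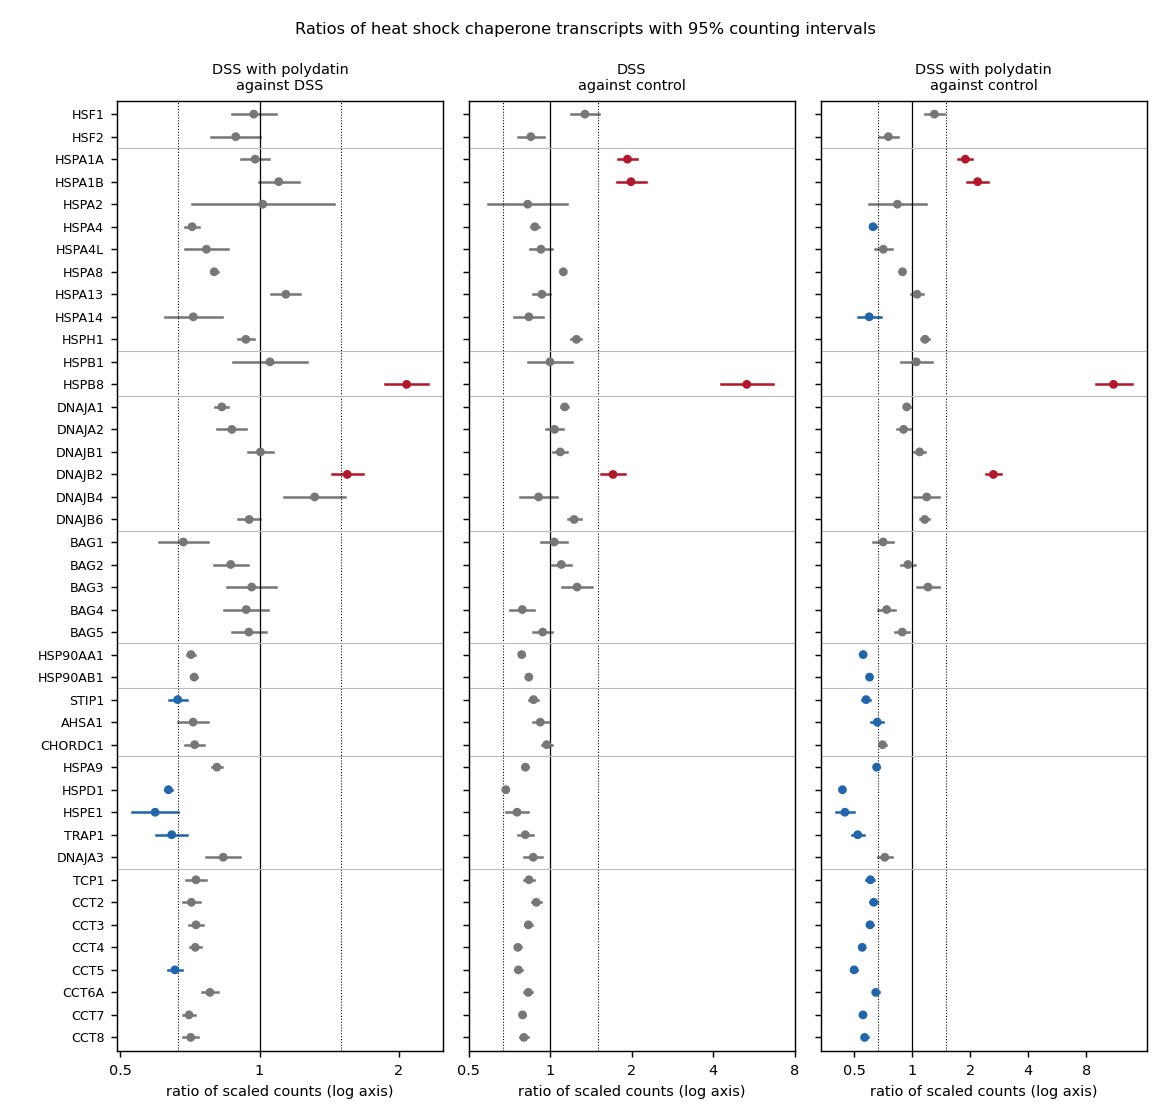
Ratio of scaled counts for the 42 measured members on a log axis, with 95% counting intervals, for DSS with polydatin against DSS, DSS against control, and DSS with polydatin against control. Dotted lines mark 1.5-fold either way. Red points were called higher, blue points lower and grey points neither. Calls to the right are HSPB8 and DNAJB2 in each panel, joined by HSPA1A and HSPA1B in the comparisons with control.

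The HSP90 genes were among the most abundant transcripts of the cells. HSP90AB1 (chromosome 6, 44246166 to 44253888), the constitutive cytosolic HSP90, ranked 22 in DSS with polydatin, 20 in DSS and 17 in control among 14705 genes by level per length. It had 33911 counts in DSS with polydatin, 49879 in DSS and 58725 in control. HSP90AA1 (chromosome 14, 102080738 to 102139699), the more inducible isoform, had 17685 counts in DSS with polydatin, 26423 in DSS and 33054 in control. For both genes the library with polydatin was lowest and control highest. The ratio of DSS with polydatin to DSS was 0.722 (0.712 to 0.732) for HSP90AB1 and 0.711 (0.698 to 0.725) for HSP90AA1. The ratio of DSS to control was 0.832 (0.823 to 0.842) for HSP90AB1 and 0.783 (0.771 to 0.796) for HSP90AA1. Neither comparison gave a call, and both genes were called lower in DSS with polydatin against control, HSP90AB1 at 0.601 (0.593 to 0.609) and HSP90AA1 at 0.557 (0.547 to 0.567). Per length, HSP90AA1 stood at 0.296 of the HSP90AB1 level in DSS with polydatin, 0.301 in DSS and 0.320 in control.

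One of the 3 RefSeq windows of HSP90AB1 is shown because it holds longer runs of exactly matched heat shock units than the HSPA1A window. It lies at chr6:44247693-44247992 (GRCh38.p14, plus strand). Capitals mark the matches. Each of the 2 runs joins a TTCNNGAA to a GAANNTTC that overlaps it by 3 bases, so that 3 units alternate. The runs begin 165 and 112 bases before the start.
HSP90AB1: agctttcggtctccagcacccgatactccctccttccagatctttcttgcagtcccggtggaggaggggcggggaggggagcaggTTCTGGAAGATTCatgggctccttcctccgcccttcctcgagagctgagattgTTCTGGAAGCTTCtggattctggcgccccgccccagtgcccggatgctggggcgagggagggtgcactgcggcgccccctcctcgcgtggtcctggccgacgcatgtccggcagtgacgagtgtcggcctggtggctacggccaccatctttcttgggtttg
The letters are given as a description, and nothing about HSF1 follows from them.

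Of the 3 HSP90 co-chaperones, STIP1 (chromosome 11, 64185272 to 64204543), the adaptor that holds HSP70 and HSP90 together, was called lower in DSS with polydatin against DSS. STIP1 had 3259 counts in DSS with polydatin, 5202 in DSS and 5883 in control, a ratio of 0.666 (0.637 to 0.696) against DSS and 0.577 (0.553 to 0.602) against control for DSS with polydatin. The first of these lay on the threshold and was not a call with total-count scaling (0.708). AHSA1, which activates the HSP90 ATPase, had 1193 counts in DSS with polydatin, 1764 in DSS and 1884 in control, and was called lower in DSS with polydatin against control at 0.659 (0.613 to 0.709), or 0.710 with total-count scaling and no call. CHORDC1, a further HSP90 partner, had 3043 counts in DSS with polydatin, 4465 in DSS and 4515 in control and was not called. The 3 ratios of DSS to control lay between 0.867 and 0.969.

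Of the 9 role groups, the 5 mitochondrial chaperones had the lowest median log2 ratio in DSS with polydatin, -0.63 against DSS and -0.94 against control. In DSS against control their median was -0.31. HSPD1 (ENSG00000144381, chromosome 2, 197486581 to 197516737) encodes HSP60, the chaperonin of the mitochondrial matrix, and HSPE1 (ENSG00000115541, chromosome 2, 197499994 to 197503457) encodes HSP10, the lid of its ring. HSPD1 had 19285 counts in DSS with polydatin, 32241 in DSS and 46155 in control, and HSPE1 had 463 in DSS with polydatin, 827 in DSS and 1076 in control. For both genes control was highest and the library with polydatin lowest. Both were called lower in DSS with polydatin against DSS, HSPD1 at 0.636 (0.624 to 0.647) and HSPE1 at 0.595 (0.530 to 0.667). Neither was called in DSS against control, HSPD1 at 0.685 (0.675 to 0.694) and HSPE1 at 0.753 (0.687 to 0.826). The ratio of DSS with polydatin to control was 0.435 (0.428 to 0.442) for HSPD1 and 0.448 (0.401 to 0.50) for HSPE1, the lowest of the 42 members and the only 2 that were more than 2-fold lower. With total-count scaling the HSPE1 call against DSS held and that of HSPD1 was lost (0.676).

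HSPD1 and HSPE1 are transcribed in opposite directions from neighbouring starts and share 281 exonic bases of the annotation, 14.2% of the HSPE1 exons. Without strand information some HSPE1 counts may therefore be HSPD1 reads. HSPE1 also shares 9.71% of its exon bases with HSPE1-MOB4 on the same strand, which had 0 counts in all 3 libraries. How reads in that overlap were counted is not known. Per length, HSPD1 stood at 19.4 times HSPE1 in DSS with polydatin, 18.2 times in DSS and 20.0 times in control. The 18 annotated HSPD1 pseudogenes held 385 counts in DSS with polydatin, 679 in DSS and 1007 in control, which is 1.96% of the counts of gene and pseudogenes together in DSS with polydatin, 2.06% in DSS and 2.14% in control. The 26 HSPE1 pseudogenes held 17 counts in DSS with polydatin, 23 in DSS and 31 in control. Reads that fit gene and pseudogene alike, or that lie in the shared exon bases, may have been left uncounted. Lengths also take in all annotated exons. The level of HSPD1 over HSPE1 per length is therefore not a measure of the proportion of their transcripts. The RefSeq start of HSPE1 lies 105 bases from the nearer of 2 HSPD1 starts. One of the 2 RefSeq windows of HSPD1 is shown because HSPD1 had the lowest ratio in DSS against control. Of the 2, only this window held a match, and that of the start nearer HSPE1 held none. The window shown, at chr2:197499791-197500090 (GRCh38.p14, minus strand), belongs to the other start. It lies wholly downstream of the start nearer HSPE1, at 197500274. Capitals mark a run of heat shock units near its upstream end, where 2 matches to TTCNNGAA and 1 to GAANNTTC overlap.
HSPD1: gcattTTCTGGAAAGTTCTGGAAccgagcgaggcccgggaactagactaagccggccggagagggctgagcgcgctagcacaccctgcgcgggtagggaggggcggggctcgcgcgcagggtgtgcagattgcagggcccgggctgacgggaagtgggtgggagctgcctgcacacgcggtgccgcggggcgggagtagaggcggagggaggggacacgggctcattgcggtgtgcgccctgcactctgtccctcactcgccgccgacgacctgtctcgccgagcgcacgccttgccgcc
The run begins 245 bases before the start to which this window belongs.

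TRAP1, the mitochondrial member of the HSP90 family, had 1100 counts in DSS with polydatin, 1809 in DSS and 2194 in control. Its ratio of 0.646 (0.599 to 0.697) in DSS with polydatin against DSS was a call, lost with total-count scaling (0.687). It shares 29.3% of its exon bases with DNASE1 on the other strand, which had 489 counts in DSS with polydatin, 511 in DSS and 332 in control. HSPA9, the mitochondrial HSP70 also called mortalin, had 12014 counts in DSS with polydatin, 15781 in DSS and 19126 in control. Its ratio was 0.809 (0.790 to 0.828) in DSS with polydatin against DSS, 0.809 (0.792 to 0.826) in DSS against control and 0.654 (0.639 to 0.669) in DSS with polydatin against control, the last of them a call that was lost with total-count scaling (0.705) and with the trend removed (0.668). DNAJA3, the J-domain partner of HSPA9, was not called, but in DSS with polydatin against control it was called lower once the trend was removed, at 0.662 (0.610 to 0.718) in place of 0.722. All 5 genes had intervals below 1 in both DSS with polydatin against DSS and DSS against control. The share of counts from the mitochondrial genome itself was also lower, at 4.34% in DSS with polydatin, 4.77% in DSS and 5.31% in control, and its part in these ratios was not tested.

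All 8 subunits of CCT, the double ring that folds actin and tubulin, had intervals below 1 in every comparison. Their summed counts were 43627 in DSS with polydatin, 64787 in DSS and 79594 in control, or 0.262% of the library in DSS with polydatin, 0.344% in DSS and 0.426% in control. The ratio of the sums was 0.715 (0.707 to 0.724) in DSS with polydatin against DSS, 0.798 (0.790 to 0.806) in DSS against control and 0.571 (0.564 to 0.577) in DSS with polydatin against control. All 8 were called lower in DSS with polydatin against control, with ratios between 0.50 and 0.648, of which CCT2 (0.681) and CCT6A (0.698) were not calls with total-count scaling. With the trend on GC content and length removed, CCT2 stood at 0.667 and CCT6A at 0.703 and again neither was a call. The genes lie on 7 chromosomes, and the subunits they encode occur in equal numbers in the ring. Their ratios kept within a narrow range, from 0.657 to 0.781 in DSS with polydatin against DSS and from 0.758 to 0.887 in DSS against control.

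CCT5 (chromosome 5, 10249921 to 10266412) was the 1 subunit called lower in DSS with polydatin against DSS. It had 5654 counts in DSS with polydatin, 9150 in DSS and 11771 in control, with a ratio of 0.657 (0.635 to 0.679) against DSS. Its exons share 30.1% of their bases with the antisense gene AC012640.4, which had 15 counts in DSS with polydatin, 6 in DSS and 10 in control. The CCT5 ratio lay close to the threshold and was not a call with total-count scaling (0.698) or with the trend removed (0.671). CCT4 (chromosome 2, 61868089 to 61888804), the most abundant subunit, had 8903 counts in DSS with polydatin, 13021 in DSS and 16828 in control, and was at 0.726 (0.707 to 0.746) in DSS with polydatin against DSS and at 0.758 (0.741 to 0.776) in DSS against control. Levels per length are counts per kilobase of annotated exon scaled to a sum of 1000000, the TPM scale. By these the subunits ran from 131 for TCP1 to 719 for CCT4 in DSS with polydatin, from 164 to 905 in DSS and from 190 to 1153 in control, with the same lowest and highest gene in each library. The exon union used as length takes in isoforms that these cells may not use, so that the spread of 5.50-fold in DSS with polydatin, 5.52-fold in DSS and 6.07-fold in control is not a measure of subunit ratios. TCP1 shares 8.05% of its exon bases with ACAT2 on the other strand, which had 2989 counts in DSS with polydatin, 3745 in DSS and 2143 in control.

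**Figure D3:**
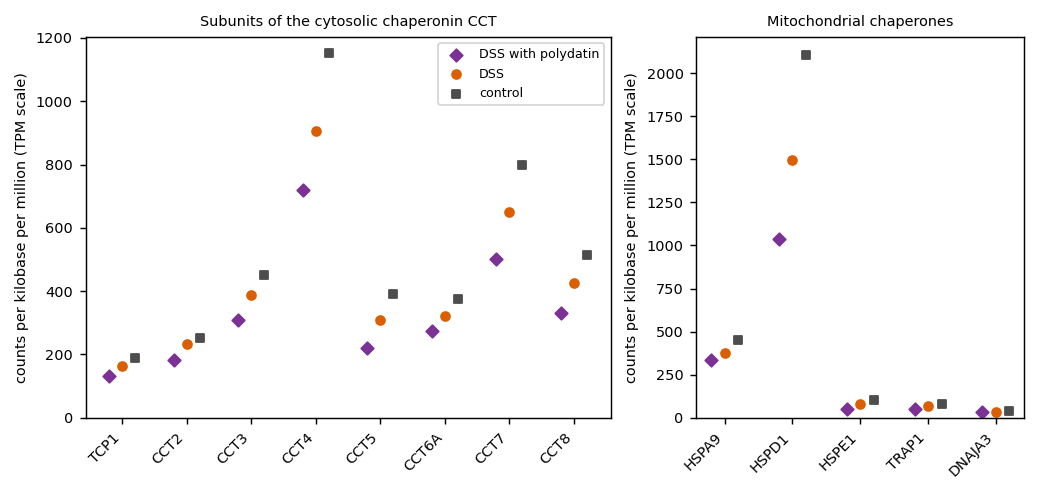
Level per length, on the TPM scale, of the 8 CCT subunits and the 5 mitochondrial chaperones in each library. Diamonds are DSS with polydatin, circles DSS and squares control, 1 library each. Every gene has the diamond lowest and the square highest, with CCT4 and HSPD1 the most abundant of their panels.

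Together the 44 genes held 1.18% of all counts in DSS with polydatin, 1.48% in DSS and 1.71% in control. The ratio of their summed counts was 0.750 (0.745 to 0.754) in DSS with polydatin against DSS and 0.854 (0.850 to 0.859) in DSS against control. These sums are set by a few abundant groups. HSP90 held 0.310% of counts in DSS with polydatin, 0.405% in DSS and 0.491% in control, and the mitochondrial chaperones held 0.203% in DSS with polydatin, 0.276% in DSS and 0.374% in control. The HSP70 and HSP110 group held 0.236% in DSS with polydatin, 0.271% in DSS and 0.245% in control, and differed less. The small HSPs held only 0.00767% in DSS with polydatin, 0.00410% in DSS and 0.00179% in control, so that the 11.1-fold ratio of HSPB8 adds little to the total.

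**Figure D4:**
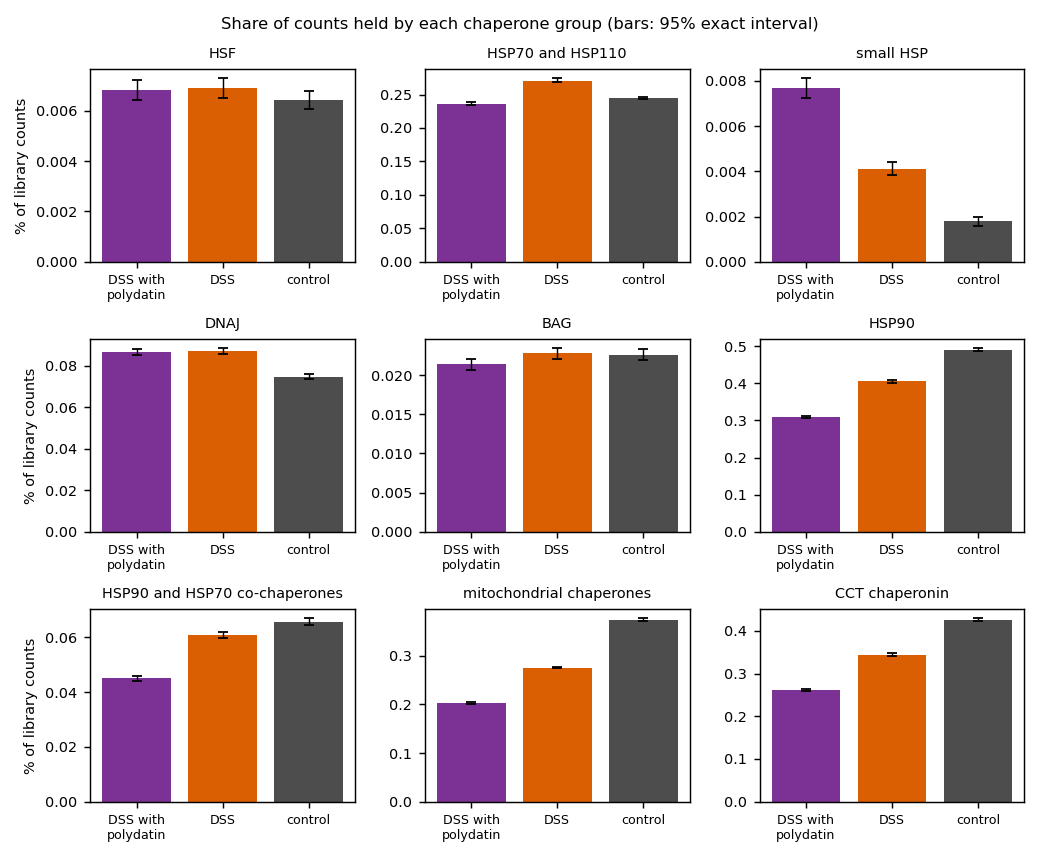
Share of library counts held by each of the 9 groups of members, in percent, with 95% exact counting intervals. Each panel has its own axis from 0, with DSS with polydatin on the left, DSS in the middle and control on the right, 1 library each. HSP90, the mitochondrial chaperones and CCT are lowest in DSS with polydatin, and the small HSPs are highest there.

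Heat shock units were more frequent in the promoter windows of the members than in all windows. They occurred in members called higher and in members called lower. Windows from RefSeq (GRCh38.p14) matched 40 of the 44 members, with 57 windows among 35116 of the same length. GAANNTTC occurred in 31.6% of member windows and 6.77% of all windows, and TTCNNGAA in 22.8% of member windows and 7.74% of all windows. Both strings read the same on either strand. Runs in which 3 units alternate, which contain 1 match of each kind, occurred in 14.0% of member windows and 0.490% of all windows. The 8 genes with such a run were HSPA6, HSPA8, HSP90AA1, HSP90AB1, DNAJA1, DNAJB6, CHORDC1 and HSPD1. Of these, HSPD1 was called lower in DSS with polydatin against DSS, none was called in DSS against control, and HSPA6 was not measured. In DSS with polydatin against control, HSP90AA1 (0.557), HSP90AB1 (0.601) and HSPD1 (0.435) were called lower. Of all 42 measured members, 11.9% were called lower in DSS with polydatin against DSS and 42.9% in DSS with polydatin against control. Over all measured genes these shares were 2.60% against DSS and 12.4% against control. With so few genes, the lower calls among those with a run cannot be told from the share of all members. The 3 members called higher with a GAANNTTC match and no such run were HSPA1A, HSPA1B and HSPB8, and DNAJB2 had neither string. Members were named for a family known for heat shock regulation, so a high share of these letters among them comes with the choice.

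**Figure D5:**
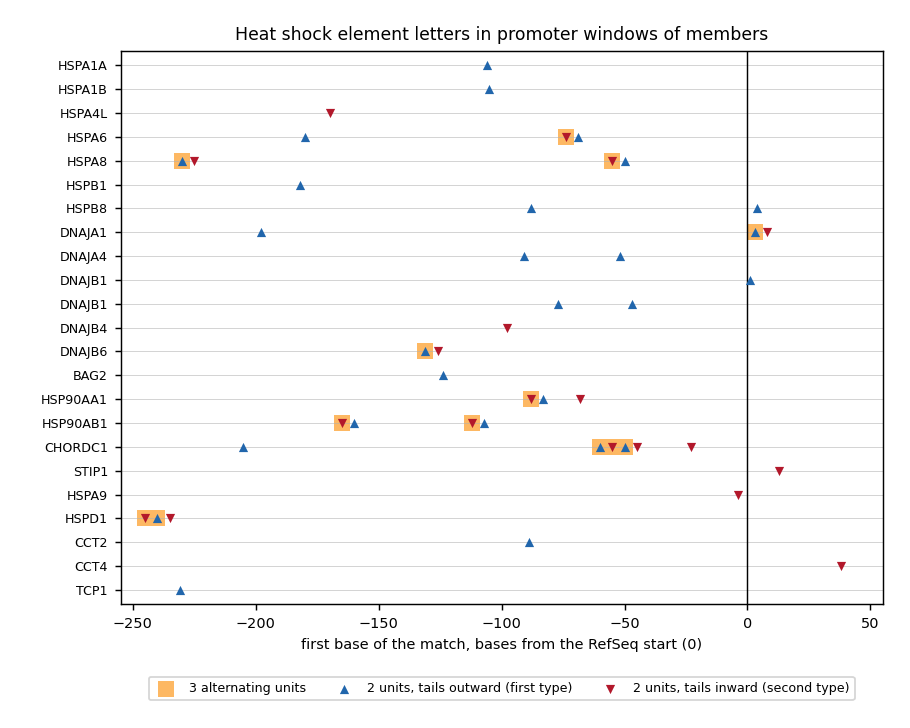
Position of heat shock unit matches in the promoter windows of members with at least 1 match, in bases from the RefSeq start at 0. Upward triangles are GAANNTTC, downward triangles TTCNNGAA, and orange squares runs in which 3 units alternate. DNAJB1 appears once for each of its 2 windows with a match. The matches of HSPA1A and HSPA1B stand at nearly the same distance from the start.

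Of 107 other genes of the same pathways, 95 were measured. Among them 1 was called higher (1.05%) and 1 lower (1.05%) in DSS with polydatin against DSS, where 5.39% of all measured genes were called higher and 2.60% lower. In DSS against control 2 were called higher (2.11%) and 2 lower (2.11%), where 9.45% of all measured genes were called higher and 5.81% lower. FKBP4, an HSP90 co-chaperone of steroid receptors, had 2985 counts in DSS with polydatin, 4806 in DSS and 5383 in control, and was called lower in DSS with polydatin against DSS at 0.660 (0.630 to 0.691). Its relative FKBP5, also a glucocorticoid-induced gene, had 705 counts in DSS with polydatin, 852 in DSS and 1427 in control and was called lower in DSS against control at 0.585 (0.537 to 0.637). PFDN5, a subunit of prefoldin, which hands new chains to CCT, was called higher in DSS against control at 1.52 (1.13 to 2.06), from 118 counts in DSS and 76 in control. DNAJC6, which uncoats clathrin vesicles with HSPA8, was 1.93-fold higher (1.32 to 2.86) in DSS with polydatin than in DSS and at 0.616 (0.413 to 0.911) in DSS against control, on 80 counts in DSS with polydatin, 44 in DSS and 70 in control. DNAJC28 was called higher in DSS against control at 1.60 (1.07 to 2.42), with 67 counts in DSS and 41 in control. Of the 95, 6 were called higher (6.32%) and 15 lower (15.8%) in DSS with polydatin against control, where 16.0% of all measured genes were called higher and 12.4% lower. The median log2 ratio of the 95 was -0.19.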

How the data were processed

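Gene-level RNA read counts were used for 3 Caco-2 libraries, 1 for each of DSS with polydatin, DSS and control. Trizol was used to extract the RNA and a VAHTS Universal RNA-seq kit to make the libraries, per the labels' protocols. The authors deposited raw whole-number counts per Ensembl gene with no normalization, and aligned with HISAT2 to GRCh38 per the submitters' processing notes. Not given in the sources used here were the version of the aligner, the counting program with its strand setting, and the annotation release. Libraries of cells given erastin or Fer-1, named in the design text, were not analysed here.

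Counts were scaled with TMM factors (1.05 for DSS with polydatin, 0.984 for DSS and 0.971 for control) from edgeR 4.0.16 in R 4.3.3. Ratios and exact 95% intervals were computed in Python 3.11.15 with scipy 1.17.1 over all 14792 genes at 1 CPM or more in at least 1 library. Where a count was 0, 0.5 was added to both. With 1 library per group no test was made. Lengths, overlaps and coordinates came from GENCODE release 29 on GRCh38, and promoters from RefSeq (GRCh38.p14). The computation was checked on simulated counts. Alternatives included size factors from DESeq2 1.42.0, scaling by total counts, other filters, added counts, thinning, a 2-fold rule, no rule on the interval, the mean, removal of a GC content and length trend (statsmodels 0.14.6), and leaving out HSPA1A and HSPA1B. Figures were drawn with matplotlib 3.10.9.

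The members and the lists of other genes were chosen with earlier results of these data known. Full values were given by rule for members called in DSS with polydatin against DSS or DSS against control, for the most abundant and the most changed member of each role group, and for HSF1, HSF2, HSPA1A, HSPA1B, HSPD1 and HSPE1. Of the other pathway genes, up to 2 called in each of these comparisons were named per list. Other members were described by choice after their values were seen.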

Additional observations from a re-analysis of the deposited data

How the results depend on the processing

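Each of 11 alternatives was run on every count, median and member it applies to, and 75 of 87 summary values stayed close to those given. Of 879 member ratios under an alternative, 100 moved beyond their counting interval and 0 of the called members changed sign. In DSS with polydatin against DSS, total-count scaling left 1 member lower (HSPE1) and a median of -0.23. The 2-fold rule left 1 higher (HSPB8) and 0 lower, the mean was -0.24, and removing the GC content and length trend left 1 higher (HSPB8). In DSS against control, the 2-fold rule left 1 higher (HSPB8), leaving out HSPA1A and HSPA1B left 2, and the mean reversed the sign of the median, at 0.0044. In DSS with polydatin against control, the 2-fold rule left 2 lower (HSPD1 and HSPE1), the mean was -0.23, and leaving out HSPA1A and HSPA1B left 2 higher. In that comparison 13 members were called lower with total-count scaling and 14 with the trend removed, in place of 18. Shifts of that size were counted as close. Apart from rules that are stricter or leave out genes by construction, the cause of these shifts was not tested. No paired analysis was possible because each group has 1 library and the labels give no replicate numbers. Depth limits HSPA6 (7 counts in DSS with polydatin, 10 in DSS and 2 in control) and DNAJA4, and the near-identical HSPA1A and HSPA1B, the overlapping HSPD1 and HSPE1, TRAP1, BAG2 and TCP1 are uncertain as single genes.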

Other observations

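The genes named from here on were chosen after their values were seen. Of 9 measured stress genes outside the families of the members that HSF1 is known to bind, 0 were called in DSS with polydatin against DSS or in DSS against control. Of all measured genes, 5.39% were called higher and 2.60% lower in the first comparison, and 9.45% higher and 5.81% lower in the second. With 9 genes, 0 calls cannot be told from these shares. In DSS with polydatin against control 4 of the 9 (44.4%) were called higher and 0 lower, where 16.0% of all measured genes were called higher and 12.4% lower. CLU, an extracellular chaperone, had 1953 counts in DSS with polydatin, 1509 in DSS and 1075 in control, and was 1.89-fold higher (1.76 to 2.04) in DSS with polydatin than in control. DEDD2 was 1.80-fold higher (1.49 to 2.20) and ZFAND2A 1.52-fold higher (1.17 to 1.97) in DSS with polydatin than in control. In DSS with polydatin against control, 6 of the 9 had intervals above 1 and 2 below. The 2 below were UBB at 0.836 (0.813 to 0.859) and CRYZ at 0.823 (0.776 to 0.874).

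Shares of the other lists in this comparison stand beside the same 16.0% higher and 12.4% lower over all measured genes. Of 17 measured prefoldin genes and CCT partners, 4 (23.5%) were called lower and 0 higher in DSS with polydatin against control, among them the prefoldin subunits PFDN2 at 0.563 (0.481 to 0.657), PFDN6 at 0.560 (0.515 to 0.608) and VBP1 at 0.643 (0.599 to 0.690). Of 23 measured HSP90 and HSP70 cofactors, 6 (26.1%) were called lower and 0 higher, while 7 had intervals above 1 and 12 below. One of those called lower was PTGES3, the HSP90 co-chaperone p23, at 0.656 (0.634 to 0.678). Of 19 measured further DNAJ genes, 3 (15.8%) were called lower and 0 higher. Among 6 measured further HSP and HSF genes, 0 were called either way. Of 21 measured mitochondrial proteostasis genes, 2 (9.52%) were called lower and 2 (9.52%) higher, below the shares of all genes both ways. Those called higher were DNAJC15 at 1.57 (1.33 to 1.87) and DNAJC28 at 1.73 (1.16 to 2.61). PHB, which encodes prohibitin of the inner mitochondrial membrane, had 5368 counts in DSS with polydatin, 8192 in DSS and 9720 in control and was at 0.575 (0.556 to 0.595) in DSS with polydatin against control.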
